A study of Mus musculus with 58 samples.

Results

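Alad, Hdhd3, Bspry and Igfbpl1 are 4 genes on mouse chromosome 4, the chromosome that carries Abca1, among the 15171 genes counted in brain tissue from 58 mice. They were chosen by their measured levels, as neighbours of Abca1 that differed strongly between mice with 1 and with 2 functional copies of Abca1 in these same data. The difference between the Abca1 genotypes is therefore given below as a description, without a test, and tests are kept for injury, APOE isoform, sex and the interactions. The interactions compare these same differences, so their p-values may not be independent of the choice.

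All mice were on the C57BL/6 background and carried human APOE in place of mouse Apoe (targeted replacement), either APOE3 on both alleles (E3) or APOE4 on both alleles (E4). E3/Abca1+/+ and E4/Abca1+/+ mice had both functional copies of Abca1, and E3/Abca1+/- and E4/Abca1+/- mice had 1. At 3 months of age each mouse received a craniotomy over the left hemisphere, followed by a controlled cortical impact (traumatic brain injury, TBI) or by no impact (sham), and cortex and hippocampus from the injury site were taken 14 days later. There were 8 E3/Abca1+/+ sham, 8 E3/Abca1+/+ TBI, 7 E3/Abca1+/- sham, 6 E3/Abca1+/- TBI, 7 E4/Abca1+/+ sham, 7 E4/Abca1+/+ TBI, 7 E4/Abca1+/- sham and 8 E4/Abca1+/- TBI mice, of both sexes. One library was made per mouse, and litters were not given in the sources used here.

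Alad encodes delta-aminolevulinate dehydratase, the cytosolic enzyme that joins molecules of aminolevulinate into porphobilinogen in the synthesis of heme, and every cell that makes heme uses it. Hdhd3 encodes a protein of the haloacid dehalogenase-like hydrolase family, and Bspry a B-box and SPRY domain protein known as a partner of an epithelial calcium channel. Igfbpl1 encodes a secreted protein related to the insulin-like growth factor (IGF) binding proteins, and is known as a gene of immature neurons. Genes that lie on the same chromosome as a targeted gene are inherited together with it more often than genes elsewhere, which is why the neighbours of a targeted locus are called passenger genes.

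By the RefSeq annotation of GRCm38.p6, Bspry (gene ID 192120) lies on the plus strand at chr4:62480011-62497300. Hdhd3 (gene ID 72748) follows on the minus strand at chr4:62499054-62502200, and Alad (gene ID 17025) on the minus strand at chr4:62505984-62520063. The 3 genes adjoin each other within 40.1 kb, with 1.75 kb between Bspry and Hdhd3 and 3.78 kb between Hdhd3 and Alad. Abca1 (gene ID 11303) lies on the minus strand at chr4:53030789-53159988, and the start sites of Bspry, Hdhd3 and Alad lay 9.32, 9.34 and 9.36 Mb from its start site. Igfbpl1 (gene ID 75426) lies on the other side of Abca1, on the minus strand at chr4:45809507-45826827, with its start site at -7.33 Mb. It is therefore close to none of the other 3, and it was described separately.

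Because Bspry, Hdhd3 and Alad moved together, the reference sequence just before each gene (RefSeq, GRCm38.p6) is shown here, 5′ to 3′ on the strand of the gene, with matches to 6 short motifs in capitals. The motifs, searched on both strands, were the TATA box TATAAA, the CCAAT box (ATTGG when on the other strand), the GC box GGGCGG, the E-box CACGTG, the AP-1 motif TGACTCA and the CRE motif TGACGTCA. The runs are chr4:62520064-62520313 (minus strand) for Alad, chr4:62502201-62502450 (minus strand) for Hdhd3 and chr4:62479812-62480010 (plus strand) for Bspry.
Alad: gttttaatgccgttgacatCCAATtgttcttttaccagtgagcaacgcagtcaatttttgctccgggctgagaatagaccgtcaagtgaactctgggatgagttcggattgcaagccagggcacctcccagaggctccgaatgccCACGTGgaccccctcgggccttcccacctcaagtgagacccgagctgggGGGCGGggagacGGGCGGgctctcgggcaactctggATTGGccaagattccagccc
Hdhd3: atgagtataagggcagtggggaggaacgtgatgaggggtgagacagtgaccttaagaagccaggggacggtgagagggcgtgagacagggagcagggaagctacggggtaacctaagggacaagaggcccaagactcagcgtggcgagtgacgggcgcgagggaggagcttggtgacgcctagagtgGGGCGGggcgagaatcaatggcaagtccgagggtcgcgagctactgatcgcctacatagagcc
Bspry: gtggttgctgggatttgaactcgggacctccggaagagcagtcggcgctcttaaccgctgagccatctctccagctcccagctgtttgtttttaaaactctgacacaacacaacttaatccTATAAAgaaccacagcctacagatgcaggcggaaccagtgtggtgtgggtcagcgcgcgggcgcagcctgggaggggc

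The Alad run of 250 bases held CCAAT in 2 places, GGGCGG in 2 places and CACGTG once. In the same 250 bases of all 32851 listed promoters, CCAAT occurred in 33.8%, GGGCGG in 32.7% and CACGTG in 6.02%. The Hdhd3 run, also of 250 bases, held GGGCGG once. The Bspry run of 199 bases held TATAAA once, at bases 122 to 127, and 9.11% of promoters held it in 199 bases. TGACTCA and TGACGTCA were not among these letters, and occurred in 4.46% and 1.55% of the 250-base promoters. No motif was found in all 3 runs. Alad had 2 listed start sites, of which the farther upstream was used.

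Levels are given in CPM, the read count of a gene with every library scaled to the same total by edgeR after trimmed-mean (TMM) normalization. Library totals ran from 4421308 to 37877346 counts, and libraries of Abca1+/- mice were deeper (median 18871445) than those of Abca1+/+ mice (median 8350020), so that depth and Abca1 genotype cannot be told apart. Bspry and Igfbpl1 had few reads, up to 86 and 128 counts in the highest mouse, and 16 of 58 libraries had 3 or fewer Bspry counts. Values near that level are therefore imprecise. Against the tissue labels, 5 neuronal genes summed to 5154 CPM or more in every mouse, and 3 dentate granule cell genes of the hippocampus (Prox1, C1ql2 and Dsp) to group medians of 74.3 to 89.7 CPM. One E4/Abca1+/- TBI library had 9.64 CPM of the dentate genes, and the lowest value in any other group was 30.6 CPM. In these whole-tissue samples, fewer cells of a type and less RNA per cell cannot be told apart.

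Abca1 itself, the targeted gene, was lower in Abca1+/- mice over all groups and in sham medians. In sham mice its lowest, median and highest level was 37.7, 47.7 and 60.8 CPM in E3/Abca1+/+ and 29.2, 35.3 and 41.6 CPM in E3/Abca1+/-. The corresponding values were 33.3, 48.9 and 51.7 CPM in E4/Abca1+/+ sham and 28.9, 35.2 and 42.4 CPM in E4/Abca1+/- sham mice. The ranges overlapped for both isoforms. After TBI its median was 147 CPM in E3/Abca1+/+ and 104 CPM in E3/Abca1+/- mice, but 121 CPM in E4/Abca1+/+ and 130 CPM in E4/Abca1+/- mice (means 156 and 138 CPM), and the TBI ranges overlapped too. Over all groups the level in Abca1+/- was 0.746 times that in Abca1+/+ mice (log2 fold change -0.42 ± 0.09 SE, edgeR quasi-likelihood adjusted p = 0.000816).

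Alad did not vary smoothly between mice. In 36 mice it was between 15.7 and 25.5 CPM, in 21 mice between 46.7 and 62.1 CPM, and in 1 mouse it was 88.3 CPM. No mouse lay between 25.5 and 46.7 CPM, a ratio of 1.83 between neighbouring values. The empty range was the widest step, as a ratio, anywhere among the 58 sorted values of the gene.

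Hdhd3 and Bspry showed the same empty range in the same mice. Hdhd3 ran from 2.06 to 6.72 CPM in 36 mice and from 12.9 to 24 CPM in 22 mice. Bspry ran from 0 to 0.914 CPM in 36 mice and from 1.95 to 5.95 CPM in 22 mice. All 58 of 58 mice were on the same side of the empty range in all 3 genes. The mouse with 88.3 CPM of Alad, replicate 4 of the E3/Abca1+/+ sham group, also had the highest Hdhd3 and the highest Bspry, whereas the second highest values were 62.1, 17.4 and 3.44 CPM. That library was among the shallower ones, with 4624048 counts, and its Alad level rested on 401 reads, its Hdhd3 level on 109 and its Bspry level on 27.

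**Figure D1:**
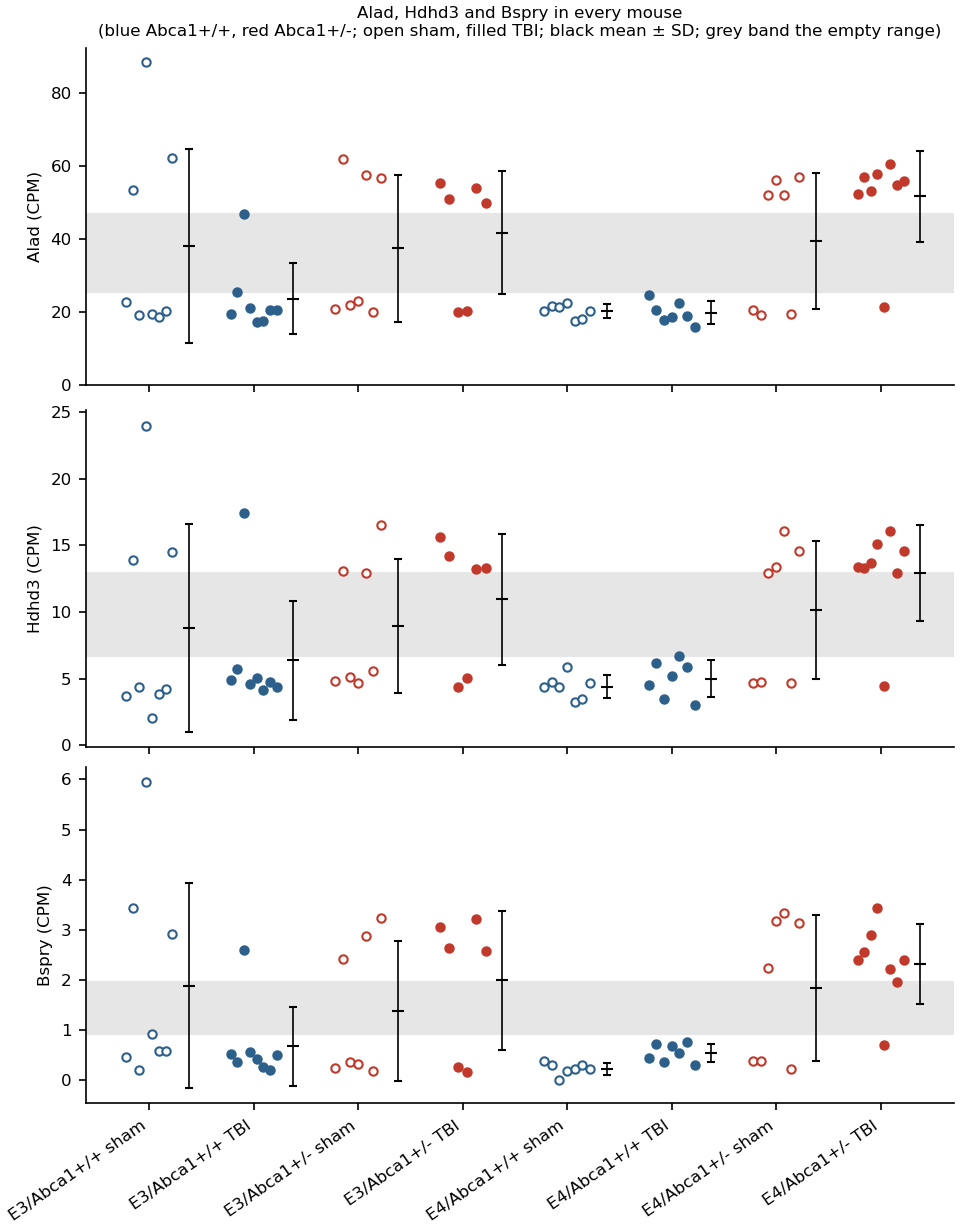
Levels of Alad, Hdhd3 and Bspry (CPM, linear axes) in each of the 58 mice by group, 1 point per mouse, with the group mean ± SD in black and the range without mice in grey. Mice sit either below or above the grey range in all 3 genes, 22 of 58 of them above it, and 1 E3/Abca1+/+ sham mouse stands higher still.

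**Figure D2:**
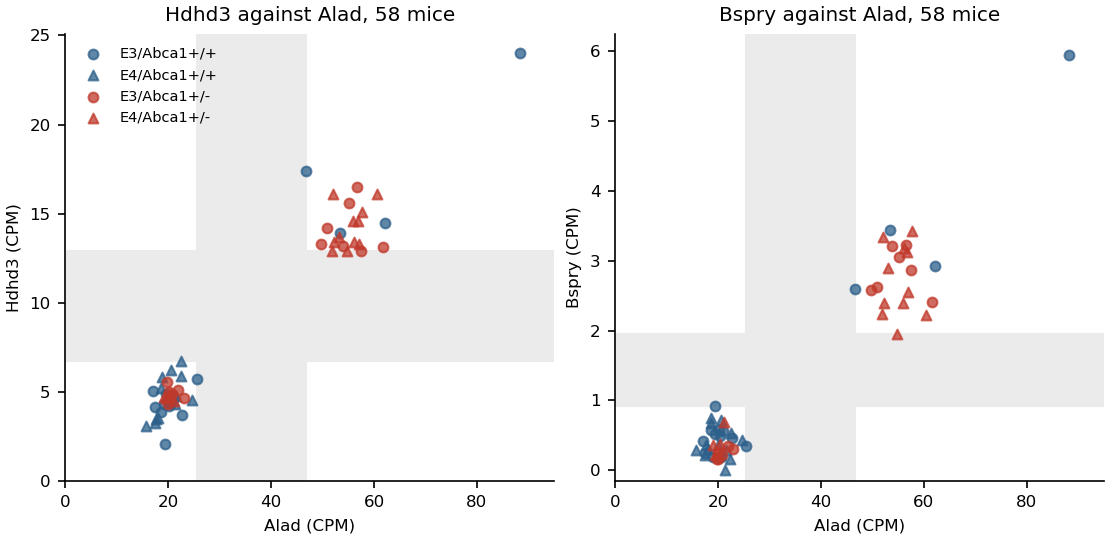
Hdhd3 (left) and Bspry (right) against Alad (CPM), 1 point per mouse, with colour for Abca1 genotype and shape for APOE isoform. The 36 lower and 22 upper mice form separate clouds with no mouse in a mixed corner, and both clouds hold mice of both Abca1 genotypes.

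Both Abca1 genotypes had mice on both sides of the empty range. Among Abca1+/- mice 18 of 28 were above it, and among Abca1+/+ mice 4 of 30. By group, the upper mice numbered 3 of 8 in E3/Abca1+/+ sham, 1 of 8 in E3/Abca1+/+ TBI, 3 of 7 in E3/Abca1+/- sham and 4 of 6 in E3/Abca1+/- TBI. They numbered 0 of 7 in E4/Abca1+/+ sham, 0 of 7 in E4/Abca1+/+ TBI, 4 of 7 in E4/Abca1+/- sham and 7 of 8 in E4/Abca1+/- TBI. All 4 upper Abca1+/+ mice carried APOE3, and every one of the 14 E4/Abca1+/+ mice was below the range.

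A group mean therefore averaged mice from both sides of the range wherever both were present. The lowest, median and highest Alad level was 19.8, 23 and 61.7 CPM in E3/Abca1+/- sham and 20, 50.3 and 55.2 CPM in E3/Abca1+/- TBI mice. In E4/Abca1+/- mice it was 19.1, 51.9 and 56.8 CPM in sham and 21.2, 55.3 and 60.5 CPM in TBI mice. The medians thus fell on one side of the range or the other, according to which side held more mice. The SD of Alad was 1.85 CPM in E4/Abca1+/+ sham and 3.06 CPM in E4/Abca1+/+ TBI, where all mice were below the range, against 9.72 to 26.7 CPM in the 6 mixed groups. As group means ± SD, Alad was 38 ± 26.7 CPM in E3/Abca1+/+ sham (n = 8) and 37.3 ± 20 CPM in E3/Abca1+/- sham (n = 7). It was 20.2 ± 1.85 CPM in E4/Abca1+/+ sham (n = 7) and 39.4 ± 18.6 CPM in E4/Abca1+/- sham (n = 7).

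Hdhd3 showed the same division by group. In Abca1+/+ mice its lowest, median and highest level was 2.06, 4.28 and 24 CPM in E3 sham, 4.16, 4.83 and 17.4 CPM in E3 TBI, 3.22, 4.35 and 5.89 CPM in E4 sham and 3.05, 5.22 and 6.72 CPM in E4 TBI mice. In Abca1+/- mice it was 4.65, 5.57 and 16.5 CPM in E3 sham, 4.34, 13.3 and 15.6 CPM in E3 TBI, 4.64, 12.9 and 16.1 CPM in E4 sham and 4.46, 13.5 and 16.1 CPM in E4 TBI mice. The Abca1 genotypes overlapped in all 4 pairs of groups.

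Bspry was measured on 0 to 86 reads per library. In Abca1+/+ mice its lowest, median and highest level was 0.195, 0.746 and 5.95 CPM in E3 sham, 0.191, 0.454 and 2.6 CPM in E3 TBI, 0, 0.215 and 0.368 CPM in E4 sham and 0.286, 0.531 and 0.754 CPM in E4 TBI mice. In Abca1+/- mice it was 0.169, 0.351 and 3.23 CPM in E3 sham, 0.164, 2.6 and 3.21 CPM in E3 TBI, 0.219, 2.24 and 3.34 CPM in E4 sham and 0.698, 2.39 and 3.43 CPM in E4 TBI mice. The E4/Abca1+/+ mice had 0 to 10 Bspry reads each, and 8 of those 14 mice had 3 or fewer.

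The number of upper mice was compared across the factors that did not choose the genes, by 5 two-sided Fisher exact tests chosen after the values were seen. It was 12 of 29 TBI and 10 of 29 sham mice (exact p = 0.787), 11 of 29 APOE4 and 11 of 29 APOE3 mice (exact p = 1), and 11 of 28 females and 11 of 30 males (exact p = 1). Within Abca1+/+ mice it was 0 of 14 APOE4 against 4 of 16 APOE3 mice (exact p = 0.103), and within Abca1+/- mice 11 of 15 against 7 of 13 (exact p = 0.433). After Benjamini-Hochberg adjustment over the 5 tests the smallest p was 0.515. The 95% Wilson intervals, which cover counting error only, were 25.5 to 59.3% of TBI mice and 19.9 to 52.7% of sham mice, so differences of moderate size were not detectable with this number of mice.

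Within each cloud the relations among the 3 genes were computed separately, as Pearson's r and Spearman's rho of log2(CPM + 1). Of 40 correlations computed in the same family, these 6 were added after the clouds were seen. The family also held the relations among the 3 genes within each Abca1 genotype, whose p-values are small because mice lie in separate clouds. Their presence lowers the adjusted p of the other relations, so an adjusted p not far under 0.05 is weak. In the 36 lower mice r between Alad and Hdhd3 was 0.43 and rho 0.38 (permutation p = 0.00916 and 0.0208), but adjusted over the family (0.0305 and 0.0693) only r passed, and leaving out the 2 mice with the most extreme Alad lowered r to 0.31. In the same mice r was -0.01 between Alad and Bspry (rho 0.00) and -0.08 between Hdhd3 and Bspry (rho 0.02), with permutation p of 0.949 and 0.653 for r. In the 22 upper mice r was 0.61, 0.64 and 0.70 for Alad with Hdhd3, Alad with Bspry and Hdhd3 with Bspry, but rho was 0.12, 0.18 and 0.43. Adjusted permutation p was 0.0782, 0.0579 and 0.0215 for r (unadjusted 0.0313, 0.0203 and 0.00483) and 0.75, 0.65 and 0.129 for rho. Without the 2 mice farthest from the median, r fell to 0.19, -0.01 and 0.38, so the relation among the upper mice rested on those mice, which include the mouse with the highest levels.

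As a description, with no test because this contrast chose the genes, the fitted level in Abca1+/- over Abca1+/+ mice across all groups was 1.76-fold for Alad (log2 0.81 ± 0.16 SE), 1.86-fold for Hdhd3 (0.90 ± 0.19) and 3.05-fold for Bspry (1.61 ± 0.35). In APOE3 sham mice the same log2 difference was 0.05 ± 0.37 for Alad, 0.12 ± 0.42 for Hdhd3 and -0.20 ± 0.68 for Bspry. In APOE3 TBI mice it was 0.86 ± 0.26 for Alad and 0.87 ± 0.35 for Hdhd3. In APOE4 sham mice it was 0.97 ± 0.26 for Alad and 1.20 ± 0.31 for Hdhd3, and in APOE4 TBI mice 1.38 ± 0.18 for Alad, 1.39 ± 0.24 for Hdhd3 and 2.12 ± 0.32 for Bspry. These differences followed the counts of upper mice, from 3 of 8 against 3 of 7 in APOE3 sham to 0 of 7 against 7 of 8 in APOE4 TBI mice. After all libraries were thinned to the smallest library, the differences across all groups were 0.80, 0.94 and 1.59 on the log2 scale for Alad, Hdhd3 and Bspry.

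The genes on either side of the 3 followed them less closely. Pole3, a subunit of a DNA polymerase, starts 4.95 kb beyond Alad, and with group means removed its log2(CPM + 1) correlated with Alad at r = 0.13 over 58 mice, while Hdhd3 and Bspry correlated with Alad at 0.96 and 0.95. Between Abca1 genotypes Pole3 was slightly higher in Abca1+/- mice (log2 0.14 ± 0.05, edgeR adjusted p = 0.0353). Wdr31, 9.01 kb before Bspry, correlated with Bspry at r = -0.23. Among the 8 genes nearest to Alad that are not themselves described here, |r| with Alad ran from 0.02 to 0.24, and the log2 difference between Abca1 genotypes from -0.13 to 0.16. These values are descriptions over mice that share groups and libraries, and those among Alad, Hdhd3 and Bspry are taken over 2 separate clouds of mice.

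Over the whole table, the gene next most like Alad, Hdhd3 and Bspry with group means removed was Fam205c, which starts -10.3 Mb from Abca1 on the same chromosome, at r = 0.53, 0.56 and 0.55. After it came 1810026J23Rik on chromosome 9 (r = -0.49) and Nek4 on chromosome 14 (r = -0.49) for Alad. For Hdhd3 came Nat8f4 on chromosome 6 (r = -0.52) and 1810026J23Rik (r = -0.51), and for Bspry Nat8f4 (r = -0.53) and Asap2 on chromosome 12 (r = 0.52). Of the 50 genes most like Alad by |r|, 18 were on chromosome 4, as were 16 for Hdhd3 and 17 for Bspry, where chromosome 4 holds 6.17% of all listed genes. Each count includes the other adjoining genes, and the counts rest on the same division of mice, so they are not separate observations. By the means of the 8 groups, the genes most like Alad were Hdhd3 (r = 0.98), Zbtb24 (0.97), Bspry (0.96), Gng7 (0.96) and Mdp1 (0.95). For Hdhd3 they were Alad (0.98), Gpn1, Coa6, Fam13c (each 0.97) and Mrpl11 (0.96), and for Bspry they were Alad (0.96), Hdhd3 (0.95), Ddx31, Aurka (each 0.94) and Zfp764 (0.93). These last values rest on 8 points and separate genes poorly.

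**Figure D3:**
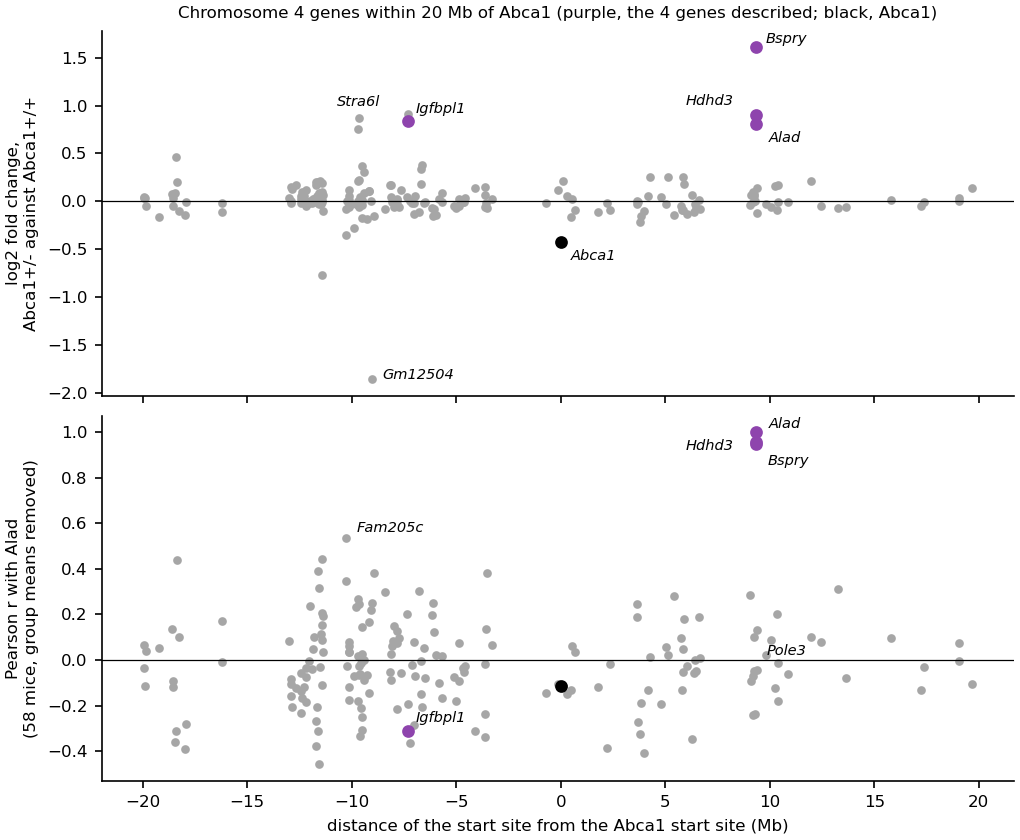
Chromosome 4 genes by distance of their start site from that of Abca1 (Mb), with the log2 fold change of Abca1+/- against Abca1+/+ over all groups (top) and Pearson's r with Alad over 58 mice, group means removed (bottom), 1 point per gene. Alad, Hdhd3 and Bspry stand far above neighbours at the same distance in both panels. They were chosen for the difference in the top panel, and the Alad point in the bottom panel is its correlation with itself.

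Genes near Abca1 were set against all genes in the same contrast. Of 15171 genes tested over all groups, 17.9% had an adjusted p under 0.05 in either direction, and 30.2% an unadjusted p under 0.05. With Alad, Hdhd3, Bspry and Igfbpl1 left out, 37 of 191 genes within 20 Mb of Abca1 (19.4%) passed the adjusted threshold, 23 higher and 14 lower in Abca1+/- mice. The share was 25% (2 of 8 genes) within 2 Mb, 13% (3 of 23) from 2 to 5 Mb, 21.4% (18 of 84) from 5 to 10 Mb, 18.4% (14 of 76) from 10 to 20 Mb and 16.8% (123 of 734) farther away on the chromosome. On the other chromosomes it was 17.9% (2545 of 14235 genes). The bins nearest to Abca1 hold few genes, and the shares were not compared by a test.

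Ranked by p-value, the leading other genes within 20 Mb differed mostly by small amounts. Higher in Abca1+/- mice were Anp32b, a nuclear phosphoprotein (32 ± 4.52 CPM in 30 Abca1+/+ and 40.3 ± 5.15 CPM in 28 Abca1+/- mice, SD, edgeR adjusted p = 1.53e-09), Hint2 (log2 0.37 ± 0.05 SE), Gng10 (0.18 ± 0.03) and Ccdc107 (0.22 ± 0.04). Lower were, with a large difference at low levels, Gm12504 (log2 -1.86 ± 0.26 SE, 0.734 ± 0.542 CPM in Abca1+/+ against 0.19 ± 0.12 CPM in Abca1+/- mice, SD) and, with small ones, Ugcg, which makes glucosylceramide (-0.14 ± 0.02), Cnr1, the main cannabinoid receptor of neurons (-0.16 ± 0.03), and Fsd1l (-0.17 ± 0.04). In none of these 8 genes did the Abca1 genotypes separate completely. By the size of the difference alone, Bspry, Hdhd3, Igfbpl1 and Alad ranked 2, 4, 6 and 7 of 195 genes. Gm12504 (-1.86), Stra6l (0.91) and Rmrp (0.87) lay among them, and Arid3c (-0.77) and Cd72 (0.76) just outside, so size alone did not choose the 4 genes.

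Whether injury changed the genes was tested within each genotype. In E3/Abca1+/+ mice the lowest, median and highest Alad level was 18.6, 21.5 and 88.3 CPM in sham and 17.1, 20.5 and 46.7 CPM in TBI mice, and the groups overlapped. Of the 3 genes tested there, 1 passed at an adjusted p under 0.05 by edgeR, against 23.2% of all genes tested, and it was Igfbpl1. Alad had a log2 fold change of -0.69 ± 0.33 (unadjusted p = 0.0473, edgeR adjusted p = 0.136), in mice among which 3 sham and 1 TBI mouse were above the empty range. Hdhd3 had -0.49 ± 0.43 (edgeR adjusted p = 0.461). Leaving out 1 mouse moved Alad between -0.88 and -0.42 (lowest adjusted p = 0.0509) and Hdhd3 between -0.84 and -0.16. Bspry had too few reads to be tested in E3/Abca1+/+ mice and in E4/Abca1+/+ mice.

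In the other genotypes, too, none of the 3 adjoining genes passed. In E3/Abca1+/- mice 1 of 4 genes passed, again Igfbpl1, against 23.4% of all genes, and the log2 fold change was 0.16 ± 0.34 for Alad, 0.29 ± 0.36 for Hdhd3 and 0.53 ± 0.67 for Bspry. In E4/Abca1+/+ mice, all below the empty range, 1 of 3 genes passed against 13.7% of all genes. Alad there ran through 17.4, 20.3 and 22.4 CPM in sham and 15.7, 18.7 and 24.7 CPM in TBI mice, overlapping, with a log2 fold change of -0.04 ± 0.09 (edgeR adjusted p = 0.82), and Hdhd3 had 0.15 ± 0.18. In E4/Abca1+/- mice 1 of 4 genes passed against 34.1% of all genes, with 0.36 ± 0.27 for Alad, 0.33 ± 0.31 for Hdhd3 and 0.32 ± 0.48 for Bspry. The standard error of Alad in E4/Abca1+/+ mice was smaller than in the 3 mixed genotypes, in which a change of moderate size was not detectable.

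**Figure D4:**
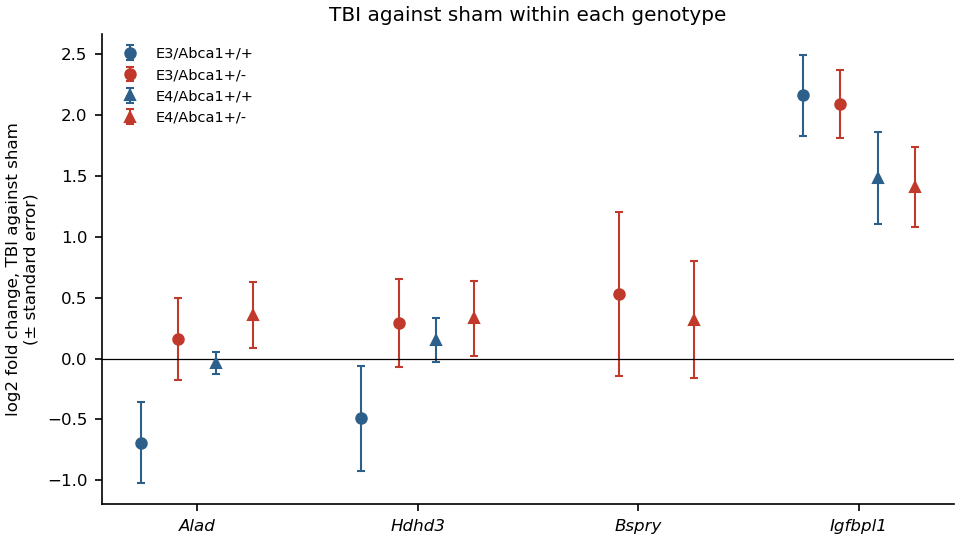
Log2 fold change of TBI against sham (± standard error, edgeR) for each gene within each genotype, with colour for Abca1 genotype and shape for APOE isoform. Igfbpl1 lies between 1.41 and 2.16 in all 4 genotypes, and Alad, Hdhd3 and Bspry scatter around 0 with wide errors, except Alad and Hdhd3 in E4/Abca1+/+ mice. Bspry was tested in Abca1+/- mice only.

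Igfbpl1 rose after TBI in all 4 genotypes. In E3/Abca1+/+ mice its lowest, median and highest level was 0, 0.556 and 1.23 CPM in sham and 1.75, 2.49 and 4.65 CPM in TBI mice, and in E3/Abca1+/- mice 0.489, 1.03 and 1.56 CPM against 2.14, 4.04 and 7.17 CPM. The sham and TBI mice did not overlap in either APOE3 genotype. The E3/Abca1+/+ sham mice had 0 to 15 Igfbpl1 reads each, and 3 of those 8 mice had 3 or fewer. The rise was 4.46-fold (log2 2.16 ± 0.33, edgeR adjusted p = 5.02e-05) in E3/Abca1+/+ and 4.26-fold (2.09 ± 0.28, edgeR adjusted p = 4.29e-05) in E3/Abca1+/- mice. Stra6l, whose annotated span overlaps that of Igfbpl1, had 0 to 0.23 CPM in all sham and 0.15 to 2.74 CPM in all TBI mice. The strand setting of the counting was not given in the sources used here, and the part of Stra6l reads in the rise was not tested.

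The rise in APOE4 mice was measured on overlapping values. In E4/Abca1+/+ mice Igfbpl1 ran through 0.221, 0.501 and 1.38 CPM in sham and 0.814, 1.45 and 2.86 CPM in TBI mice. The rise was 2.78-fold (log2 1.48 ± 0.38, edgeR adjusted p = 0.0141). Igfbpl1 there had 2 to 13 reads per sham mouse, 3 of 7 with 3 or fewer, and 9 to 30 reads per TBI mouse. With 1 mouse left out, it passed the low-count filter in only 7 of 14 fits. In E4/Abca1+/- mice it ran through 0.35, 0.884 and 2.57 CPM in sham and 2.21, 2.98 and 5.93 CPM in TBI mice, a rise of 2.66-fold (1.41 ± 0.33, edgeR adjusted p = 0.00302). A difference in the rise between the isoforms was not tested. The E4/Abca1+/- sham mouse at 2.57 CPM, replicate 2, also had 9.37 CPM of Clec7a, a receptor of activated microglia chosen after its values were seen, against 0 to 1.43 CPM in the other 28 sham mice. Its microglial sum (293 CPM) lay above the range of those mice (201 to 266 CPM). Its ependymal sum (18.1 CPM) and astrocyte sum (5174 CPM) lay within the ranges of those mice (3.74 to 21.4 and 4471 to 5963 CPM). Without that mouse the log2 fold change in E4/Abca1+/- mice was the highest of the 15 values obtained by leaving out 1 mouse, 1.74.

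**Figure D5:**
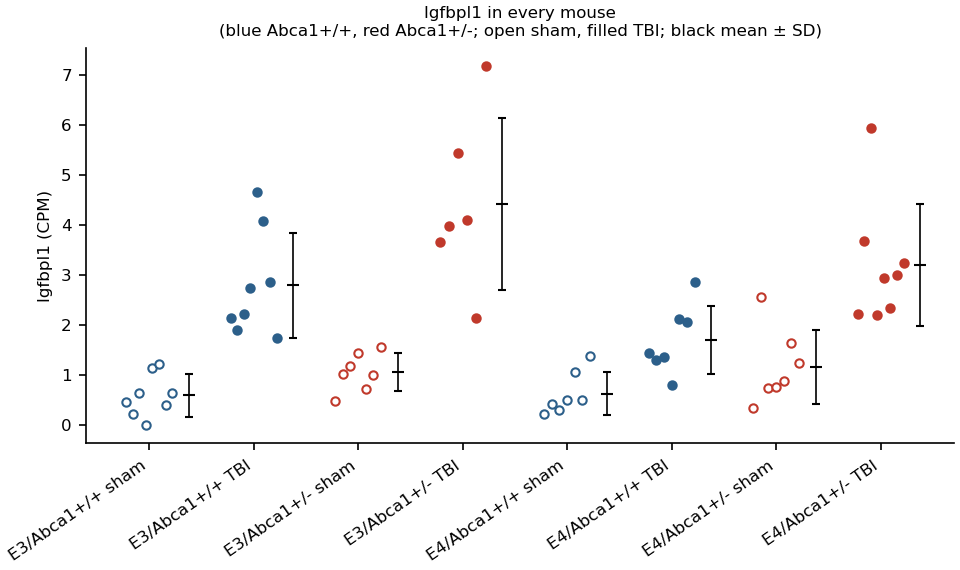
Level of Igfbpl1 (CPM) in each mouse by group, 1 point per mouse, with the group mean ± SD in black. Levels vary without an empty range, from 0 to 2.57 CPM in sham and from 0.814 to 7.17 CPM in TBI mice.

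The genes of the IGF axis gave a mixed picture after TBI. Of 11 genes (Igf1, Igf2, their receptors, the binding proteins and, counted with them, Igfbpl1), 7 were higher and 1 was lower at an adjusted p under 0.05 in E3/Abca1+/+ mice. The counts were 5 and 2 in E3/Abca1+/-, 4 and 1 in E4/Abca1+/+ and 5 and 1 in E4/Abca1+/- mice. In the same order 23.2, 23.4, 13.7 and 34.1% of all genes tested passed in either direction. The median log2 fold change of the list was 0.49, 0.57, 0.47 and 0.68 in the same order, against medians of all genes tested within 0.01 of 0. Igfbp5 and Igfbp7, binding proteins of the matrix and vessels, rose in every genotype, by 0.69 to 0.97 and by 0.66 to 1.29 on the log2 scale. Igfbp4, a binding protein that holds IGF away from its receptor, fell in every genotype, by 0.43 to 0.48. Igf1 rose in 3 genotypes and had 0.41 ± 0.17 (edgeR adjusted p = 0.122) in E4/Abca1+/+ mice.

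Markers of other cells were measured beside the rise of Igfbpl1. Of 5 other measured genes of immature neurons (Dcx, Sox11, Sox4, Neurod1 and Draxin), Dcx, the usual marker of migrating neuroblasts, had median levels of 28.5 to 29.9 CPM in the sham and 30.3 to 32 CPM in the TBI groups and passed in no genotype. Sox11 rose in E3/Abca1+/+ (log2 0.45 ± 0.12) and E4/Abca1+/- mice (0.26 ± 0.10), Sox4 in both Abca1+/+ genotypes (0.42 ± 0.12 in each) and Draxin in E3/Abca1+/- mice. Of the markers of ependyma, the ciliated lining of the ventricles, Foxj1 rose in 3 genotypes, by 1.07 to 1.45 on the log2 scale, and had 0.84 ± 0.32 (edgeR adjusted p = 0.0726) in E3/Abca1+/- mice. Rarres2 rose in E3/Abca1+/+, E3/Abca1+/- and E4/Abca1+/- mice. Tmem212 and Ccdc153 passed in no genotype where they were tested. In each Abca1+/+ genotype only 2 of the 4 markers had enough reads to be tested, so Tmem212 and Ccdc153 were not tested in E3/Abca1+/+ mice. In E4/Abca1+/+ mice none but Foxj1 passed. After TBI the medians of Tmem212 and Ccdc153 were lower in E4/Abca1+/- mice (1.3 to 1.15 and 2.8 to 2.13 CPM) and higher in the other genotypes. Foxj1 had the highest median of the 4 markers in every group. The 4 ependymal markers (Foxj1, Tmem212, Ccdc153 and Rarres2) summed to 3.74 to 21.4 CPM in sham and 7.12 to 52.2 CPM in TBI mice. All 4 microglial markers rose in all 4 genotypes, as did the astrocyte genes Gfap (by 2.29 to 2.49) and Aqp4 (by 0.94 to 1.25). Of 5 neuronal markers 4, 5, 3 and 5 fell in E3/Abca1+/+, E3/Abca1+/-, E4/Abca1+/+ and E4/Abca1+/- mice. Summed choroid plexus markers ran from 11.5 to 2060 CPM, with highest values of 1044 CPM or more in every group but E3/Abca1+/+ sham, where the highest was 29.4 CPM. The part of these cells in the rise of Igfbpl1 was not tested.

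Within groups, Igfbpl1 went with the summed ependymal markers, of which Foxj1 had the highest median in every group. Group means were removed from log2(CPM + 1) and the correlation with the summed markers of 7 cell types was computed in each Abca1 genotype, 14 relations of the family of 40, added after the values were seen. With the ependymal sum r was 0.65 and rho 0.63 in the 30 Abca1+/+ mice (permutation p = 0.00024 and 0.00041, adjusted 0.00187 and 0.00269). In the 28 Abca1+/- mice r was 0.63 and rho 0.62 (permutation p = 0.00028 and 0.00047, adjusted 0.00187 and 0.00269). Without the 2 mice farthest from the median of the ependymal sum, r was 0.63 and 0.66. The call was lost in Abca1+/+ mice when isoform, injury and sex means were removed instead (r = 0.43, adjusted permutation p = 0.0656), and in Abca1+/- mice when libraries were thinned to the lowest total (r = 0.41, adjusted permutation p = 0.0963). With the sum of immature neuron markers r was -0.07 and -0.03 (permutation p = 0.739 and 0.871).

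The relations with other sums follow. Adjusted p was taken over the same family, in which the relations among Alad, Hdhd3 and Bspry over both clouds lower the other adjusted values. With the microglial sum r was 0.14 in Abca1+/+ (permutation p = 0.487) and 0.52 in Abca1+/- mice (rho 0.51, permutation p = 0.00848, adjusted 0.0305), but 0.42 after thinning (adjusted permutation p = 0.0963), as large as the thinned ependymal value. With the dentate granule sum it was 0.47 in Abca1+/+ (rho 0.45, permutation p = 0.0131, adjusted 0.0403, with rho adjusted 0.0693; r = 0.25 after thinning) and 0.08 in Abca1+/- mice (permutation p = 0.655). With Abca1 itself r was 0.16 (rho 0.22, permutation p = 0.421) in Abca1+/+ and 0.31 (rho 0.20, permutation p = 0.135) in Abca1+/- mice, and 0.21 and 0.05 without the 2 farthest mice. Over 58 mice with group means removed, the genes most like Igfbpl1 were Trim66 (r = -0.73), Astn2 on chromosome 4 (-0.73), Spata18 (0.73), Vwc2l (-0.73) and Tshz3 (-0.72). By the means of the 8 groups they were Tmie, Pter (each r = 0.99), Nqo1, Tpbgl and Mrfap1 (each 0.98). Of the 50 genes most like Igfbpl1 by |r|, 4 were on chromosome 4, which holds 6.17% of all listed genes.

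Between Abca1 genotypes Igfbpl1 differed without an empty range. As a description, the level over all groups was 1.79-fold higher in Abca1+/- mice (log2 0.84 ± 0.18 SE), and the log2 difference was 0.77 ± 0.36 in APOE3 sham, 0.67 ± 0.26 in APOE3 TBI, 0.99 ± 0.47 in APOE4 sham and 0.91 ± 0.27 in APOE4 TBI mice. It was 0.83 over all groups with libraries thinned to the lowest total. Of the ependymal markers, Rarres2 was higher in Abca1+/- mice (0.42 ± 0.14, edgeR adjusted p = 0.0264) and Foxj1 had 0.40 ± 0.18 (edgeR adjusted p = 0.114). Of 6 choroid plexus markers, with a median of 1.33, Aqp1 was higher (1.45 ± 0.49, edgeR adjusted p = 0.0323). Of 3 endothelial markers, Pecam1 (-0.18 ± 0.05) and Flt1 (-0.19 ± 0.05) were lower. In this contrast 17.9% of all genes passed in either direction. The part of ependymal, choroid plexus and endothelial cells in the Igfbpl1 difference was not tested. The annotated span of Igfbpl1 overlaps that of Stra6l, on the plus strand at chr4:45824293-45887010, by 2.54 kb at its start. Stra6l, a membrane protein related to a retinol-binding protein receptor, had 0 to 0.23 CPM in sham and 0.15 to 2.74 CPM in TBI mice. Whether the counting used strand was not given in the sources used here, so reads of the 2 genes where they overlap may not be told apart.

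APOE isoform did not change any of the 4 genes past the threshold. Over all groups 0 of 4 passed by edgeR (0 at an unadjusted p under 0.05, and 0 by DESeq2), against 15% of all genes, with log2 fold changes of APOE4 against APOE3 of -0.18 ± 0.16 for Alad, -0.21 ± 0.19 for Hdhd3, -0.60 ± 0.37 for Bspry and -0.26 ± 0.19 for Igfbpl1. In Abca1+/+ mice 0 of 3 passed by edgeR (2 at an unadjusted p under 0.05, and 0 by DESeq2), against 1.89% of all genes, while 1892 of 14505 genes had an unadjusted p under 0.05. The 2 were Alad (-0.55 ± 0.20, edgeR adjusted p = 0.18) and Hdhd3 (-0.63 ± 0.27, edgeR adjusted p = 0.297), in mice of which 4 of 16 with APOE3 and 0 of 14 with APOE4 were above the empty range. In Abca1+/- mice 0 of 4 passed by edgeR (0 at an unadjusted p under 0.05, and 0 by DESeq2), against 16.8% of all genes.

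The interactions asked whether the difference between Abca1 genotypes depended on isoform or injury. The genes were chosen by that difference, so these p-values may not be independent of the choice. For isoform 0 of 4 genes passed by edgeR (3 at an unadjusted p under 0.05), against 0.0659% of all genes. Of all 15171 genes 2054 had an unadjusted p under 0.05 by edgeR, and DESeq2, which called 102 genes, gave no adjusted p for the 4. The 3 were Alad (log2 0.73 ± 0.32, edgeR adjusted p = 0.306), Hdhd3 (0.82 ± 0.39, edgeR adjusted p = 0.344) and Bspry (1.76 ± 0.73, edgeR adjusted p = 0.282), each with a larger genotype difference in APOE4. All 3 follow the same division of mice and are not separate results. The value for Igfbpl1 was 0.23 ± 0.37. For injury 0 of 4 passed by edgeR (0 at an unadjusted p under 0.05, and 0 by DESeq2), against 0% of all genes (401 at an unadjusted p under 0.05, and 0 by DESeq2), and Alad had 0.64 ± 0.32.

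Females and males differed little in the 3 adjoining genes. By edgeR 0 of 4 genes passed (1 at an unadjusted p under 0.05, and 1 by DESeq2), against 10.1% of all genes. Of all 15171 genes 3935 had an unadjusted p under 0.05 and 1704 were called by DESeq2, so that 1 of 4 is near the background. The 1 gene was Igfbpl1, with a mean of 2.23 ± 1.69 CPM in 28 females and 1.63 ± 1.33 CPM in 30 males (SD, log2 0.43 ± 0.16 SE, edgeR adjusted p = 0.0749, DESeq2 adjusted p = 0.0449). Of the 4 ependymal markers, 3 were higher in females (Foxj1, Ccdc153 and Rarres2), and the part of these cells was not tested.

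Few other genes of heme synthesis passed a threshold. After TBI 0 of 8, 0 of 9, 0 of 8 and 1 of 8 measured genes of the pathway passed in E3/Abca1+/+, E3/Abca1+/-, E4/Abca1+/+ and E4/Abca1+/- mice, with median log2 fold changes within 0.04 of 0. The 1 was Ppox, the penultimate enzyme of the pathway (0.32 ± 0.09, edgeR adjusted p = 0.00951). Between Abca1 genotypes 17.9% of all genes passed. Of the 8 other measured genes of the pathway, Urod, the decarboxylase of uroporphyrinogen, was the 1 past the threshold (0.14 ± 0.02, edgeR adjusted p = 3.32e-05). Its group medians ran from 35.1 to 39.9 CPM in Abca1+/+ and from 38.5 to 41.2 CPM in Abca1+/- mice. Hmox1, the inducible enzyme that breaks heme down, rose after TBI in every genotype, by 1.30 to 1.84 on the log2 scale. Of the other phosphatases of the haloacid dehalogenase-like list and Hdhd3, 2 of 8 fell after TBI in E3/Abca1+/+ mice, 1 of 8 in E3/Abca1+/-, 1 of 8 in E4/Abca1+/+ and 0 of 8 in E4/Abca1+/- mice. Of the list of SPRY domain proteins and calcium channel partners that holds Bspry, 2 of 8, 3 of 9, 0 of 8 and 3 of 9 fell in the same order and none rose. After TBI 23.2, 23.4, 13.7 and 34.1% of all genes passed in either direction, in the same order. The 3 lists are short, and their counts were not compared with these shares by a test. Trim9, a neuronal ubiquitin ligase, fell in 3 genotypes, by 0.17 to 0.24.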

How the data were processed

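RNA from cortex and hippocampus of 58 mice was sequenced, 1 library per mouse. The authors deposited raw read counts per gene, which the submitters' processing notes credit to Subread 1.5.0 and featureCounts on mm10. The notes also name edgeR. The strand setting was not given in the sources used here. Of the table's lines, 2 were blank and were dropped, 23 symbols that had turned into dates were restored by gene ID, and 0 columns were left unused. RefSeq (GRCm38.p6) matched 14999 of 15171 genes (98.9%).

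Groups were taken from the labels. Low counts were removed per contrast by filterByExpr, and edgeR 4.0.16 (R 4.3.3) fitted a quasi-likelihood F test with TMM factors of 0.954 to 1.038 and Benjamini-Hochberg adjustment over all genes tested. The standard error is the log2 fold change divided by the square root of F. DESeq2 1.42.0, its size factors, other low-count filters, thinning to 4421308 counts and leaving out each mouse were alternatives. Levels are CPM, and correlations used log2(CPM + 1) with group means removed and 100000 permutations, two-sided (Python 3.11.15, numpy 2.4.6, scipy 1.17.1, pandas 2.3.3, matplotlib 3.10.9). Scripts were tested on simulated data. P-values rest on the spread between mice.

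The genes and lists were chosen with earlier results of these data known. Named genes were the 4 genes, Abca1, list genes on which a count turned, the 5 nearest genes on each side, the 5 most alike by each measure, and the 5 with the smallest p in each direction within 20 Mb of Abca1, of which 1 is not reported here. Single genes outside this rule (Clec7a, and the genes beside the rank limit) were chosen after their values were seen.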

Additional observations from a re-analysis of the deposited data

Results flagged for a closer look

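Of 32 sets of mice (4 genes in 8 groups), 6 held a mouse whose distance from the nearest other was large for the range of its group by Dixon's test, which chance gives in about 1 in 20. In E3/Abca1+/+ TBI mice, replicate 3 had the highest level of 3 genes, with 46.7 CPM of Alad (next 25.5), 17.4 CPM of Hdhd3 (next 5.69) and 2.6 CPM of Bspry (next 0.562, with 14 reads in the highest mouse). It was the 1 mouse of its group above the empty range. In E4/Abca1+/- TBI mice, replicate 5 had the lowest Alad, 21.2 CPM (next 52.3), and the lowest Hdhd3, 4.46 CPM (next 12.9), and was the 1 mouse of its group below the range. In the same group replicate 3 had the highest Igfbpl1, 5.93 CPM (next 3.67, with 78 reads in the highest mouse). The 6 values come from 3 mice and are not independent.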

How the results depend on the processing

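Igfbpl1 passed after TBI in every genotype under each alternative that gave a value, with log2 fold changes on leaving out 1 mouse of 1.99 to 2.47, 1.90 to 2.24, 1.39 to 1.59 and 1.23 to 1.74 in E3/Abca1+/+, E3/Abca1+/-, E4/Abca1+/+ and E4/Abca1+/- mice. In E4/Abca1+/+ mice only 7 of the 14 fits tested it, since it did not pass the low-count filter in the others. Thinning gave it a value only in E4/Abca1+/- mice (1.52). Bspry in E4/Abca1+/- mice ran from 0.13 to 0.54 and in E3/Abca1+/- mice from 0.33 to 0.84. Leaving out 1 mouse and the correlations within clouds or with markers were chosen after seeing the data. Of 351 values of single genes under other processing, 346 kept their direction and, where an adjusted p was given, their side of the threshold, 1 passed it (Igfbpl1 in females against males by DESeq2, 0.47) and 4 changed sign near 0: Alad after TBI in E4/Abca1+/+ mice (0.03, thinned), Igfbpl1 in the Abca1 by injury interaction (0.01, thinned), Bspry between the sexes (-0.03, DESeq2) and Alad between Abca1 genotypes in APOE3 sham mice (-0.03, DESeq2). Alad after TBI in E4/Abca1+/+ mice ran from -0.10 to 0.01 on leaving out 1 mouse. Thinning lowered genes called after TBI in E3/Abca1+/- mice from 3515 to 2102, between isoforms from 2279 to 1465 (274 to 167 in Abca1+/+, 2554 to 1297 in Abca1+/- mice), between Abca1 genotypes from 2712 to 1689 and in the Abca1 by isoform interaction from 10 to 5, where DESeq2 called 102; thinning leaves fewer reads by construction. Without adjustment, 57 rather than 37 genes within 20 Mb of Abca1 passed. Of 36 correlations under other processing, 24 kept their call. Thinned, r was 0.22 (Alad and Hdhd3, lower mice), 0.10 (Alad and Bspry, lower mice), 0.56 (Alad and Hdhd3, upper mice, then past the threshold) and 0.48 (Hdhd3 and Bspry, upper mice). For Igfbpl1, thinned, r was 0.25 and -0.05 with dentate markers in Abca1+/+ and Abca1+/- mice, and 0.42 and 0.41 with microglial and ependymal markers in Abca1+/- mice. With isoform, injury and sex means removed, r of Igfbpl1 in Abca1+/+ mice was -0.10 with Abca1, -0.10 with microglial and 0.43 with ependymal markers, and in Abca1+/- mice 0.30 with microglial markers. The cause of these changes was not tested. Few Bspry and Igfbpl1 reads limit their precision.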
